A study of Mus musculus with 13 samples.

Results

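The endothelial surface and junction genes are 34 mouse genes chosen by known function: their products build the contacts between endothelial cells, sit on the endothelial surface, line caveolae and capillary openings, are secreted by vessels, or act inside endothelial cells. Of these, 33 had a probe set among the 18193 genes that could be named, and all 33 passed the filter on low values. Tspan7 was not analysed here. Each gene was read from 1 probe set, a group of short probes against a single transcript, namely the set with the highest mean over the 13 arrays.

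RNA came from cells of mouse tumors that were sorted with a CD31 antibody, after platelets and red cells had been removed on a Percoll gradient. The tumors grew from SKOV3ip1, a human ovarian cancer line, in the peritoneal cavity of female athymic nude mice, and the groups were B20-resistant (n = 4 arrays), B20-sensitive (n = 4) and control (n = 5). B20 is an antibody against VEGF-A. In the study's methods the controls received an IgG antibody, and treated mice were assigned to the sensitive or the resistant group by how the bioluminescence of their tumors had responded, so those groups were not set by a treatment given or withheld. Tumors were collected at different times in the course of B20 treatment, so response, time of collection and length of treatment cannot be told apart. The hosts lack mature T cells but keep myeloid and B cells, their ages were not given for this model in the sources used here, and the labels call each array a biological replicate without naming the mouse or mice behind it, so each p-value measures the spread between these arrays.

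Endothelial cells line every blood and lymph vessel. They are joined by adherens junctions, in which VE-cadherin binds its like on the next cell, and by tight junctions, in which claudins seal the gap. Caveolae and diaphragms carry molecules across the vessel wall, and von Willebrand factor is kept in storage granules for release on injury. VEGF-A acts on receptors of the same cells, loosens their junctions and drives vessel growth, which is the setting in which an antibody against it was given.

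The arrays differed from each other in ways that the groups did not explain. Replicate arrays correlated over all genes at 0.896 to 0.955 in the resistant group, 0.663 to 0.919 in the sensitive group and 0.905 to 0.984 in the control group. The SD of the deposited values was 1.93 on resistant array 4, 1.74 on sensitive arrays 1 and 2, 1.90 on control array 3 and 2.02 to 2.20 on the others. On sensitive array 4 the probe sets at the 3' end of Actb and Gapdh exceeded those at the 5' end by 5.95 log2 units on average, against 2.23 to 3.82 on the other 12 arrays. Genes of other cell types also varied: the median log2 value of 14 macrophage genes was 7.57 to 9.28 on the resistant arrays, 3.58, 3.52, 4.37 and 9.32 on the sensitive arrays and 7.25 to 9.31 on the control arrays. That of 10 genes typical of mesothelium, the cell layer around the peritoneal cavity, was 8.31 and 7.88 on sensitive arrays 1 and 2 and 2.58 to 6.97 on the others. The medians of 10 platelet genes lay between 3.53 and 4.69 on all arrays, but single genes varied. Pf4 ran from 4.54 on sensitive array 3 to 9.73 on resistant array 4. Itgb3 was 7.66 and 8.17 on control arrays 4 and 5 and 7.77 on sensitive array 3, against 3.72 to 5.44 on the others. The medians of 5 B cell genes were highest on sensitive array 3, at 6.74. Those of 7 T and NK cell genes were 5.16 on sensitive array 3 and 4.47 on control array 1, against 2.55 to 3.01 on the others.

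The members' levels separated control arrays 4 and 5 from every other array. The median over the 33 genes was 3.56 to 4.22 on the resistant arrays, 2.78 to 3.56 on the sensitive arrays, 3.29 to 3.60 on control arrays 1, 2 and 3 and 6.55 on each of control arrays 4 and 5. In 24 of the 33 genes the lower of control arrays 4 and 5 exceeded the highest of the other 11 arrays, by 0.02 for Eng, 0.10 for S1pr1 and up to 4.55 for Esm1. The share of all genes with this order was not computed, so how particular it is to these genes is not known. Sensitive array 3 was the lowest array in 19 of the 33, again with no share over all genes computed. All values are on the log2 scale with a floor of 2.01, below which no order was read. Of the 15370 genes tested, 14302 were above the floor on sensitive array 3 and 14480 to 14672 on the other arrays. Values were compared between arrays for each gene and not between genes, since probe sets differ in brightness. In RNA from a sorted mixture, fewer cells of a type and less RNA per cell cannot be told apart.

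**Figure D1:**
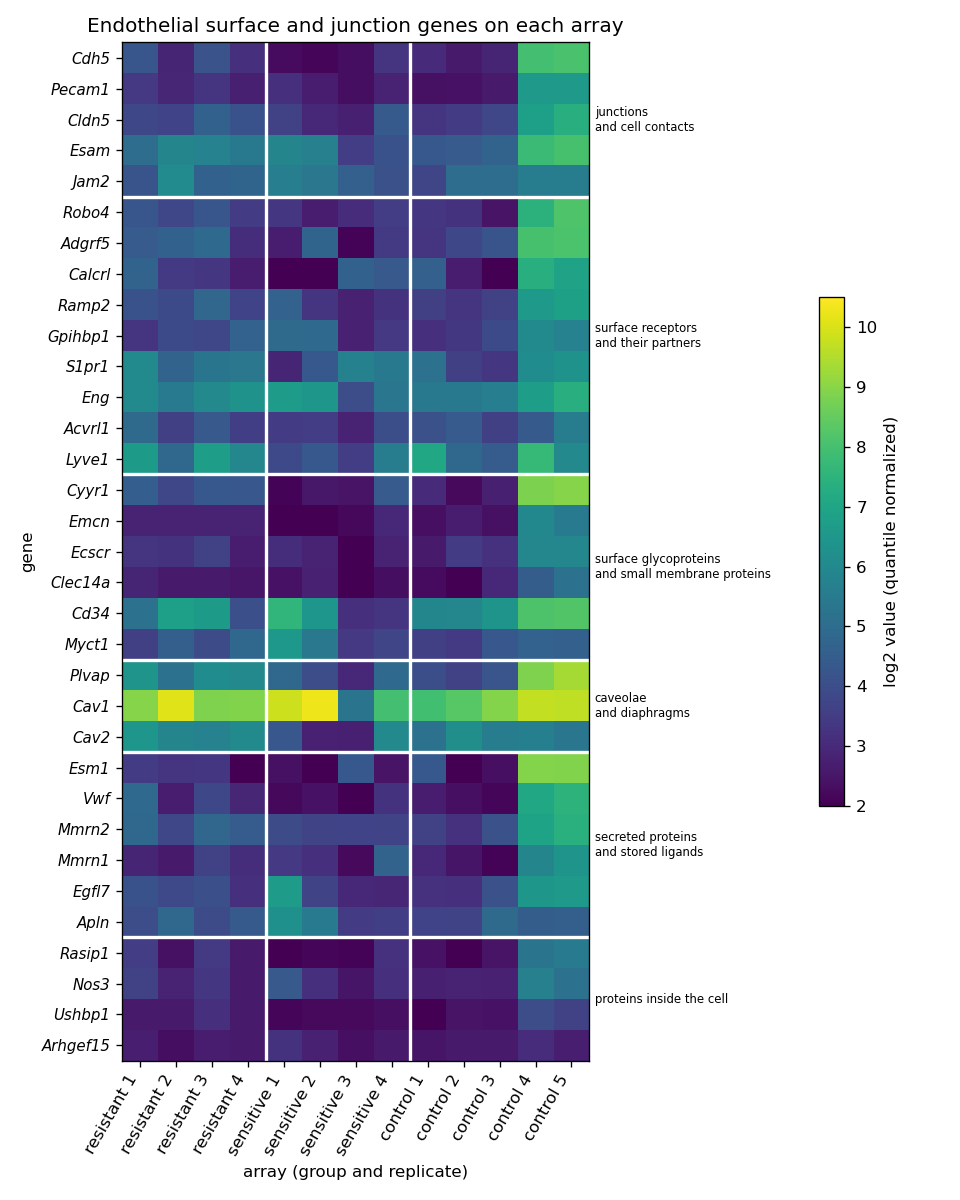
Log2 value of each of the 33 genes (rows, grouped by role) on each of the 13 arrays (columns, by group and replicate), quantile normalized with a floor of 2.01; colors are to be compared along a row. Control arrays 4 and 5 are the brightest columns in most rows, and sensitive array 3 is the lowest array in 19 rows.

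Among the 5 junction and contact genes, 4 were above all other arrays on control arrays 4 and 5. Cdh5, the gene of VE-cadherin, was 4.28, 2.87, 4.16 and 3.13 on the resistant arrays, 2.24, 2.11, 2.33 and 3.27 on the sensitive arrays and 3.03, 2.61, 2.88, 7.96 and 8.06 on the control arrays. Pecam1, the gene of the CD31 protein on which the cells were sorted, was 3.41, 2.91, 3.27 and 2.74 on the resistant arrays, 3.16, 2.64, 2.32 and 2.83 on the sensitive arrays and 2.39, 2.42, 2.61, 6.56 and 6.56 on the control arrays. For both genes control arrays 4 and 5 stood alone, control arrays 1 to 3 lay within the range of the resistant and sensitive arrays, and the resistant and sensitive arrays overlapped.

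Cldn5, the main claudin of vascular tight junctions, had 6.79 and 7.38 on control arrays 4 and 5, against 2.74 to 4.63 on the other 11, and Esam, an adhesion molecule of the same junctions, had 7.80 and 8.04 on control arrays 4 and 5, against 3.53 to 5.88 on the other 11. Jam2, another junctional adhesion molecule, was 4.22, 6.09, 4.64 and 4.74 on the resistant arrays, 5.64, 5.39, 4.59 and 4.10 on the sensitive arrays and 3.77, 5.02, 5.04, 5.56 and 5.57 on the control arrays. Its highest array was resistant array 2, and the 3 groups overlapped.

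Of the 9 receptors and their partners, 7 had control arrays 4 and 5 above the rest. Adgrf5, an adhesion G-protein-coupled receptor, was 4.46, 4.63, 4.91 and 3.11 on the resistant arrays, 2.69, 4.73, 2.08 and 3.45 on the sensitive arrays and 3.27, 3.84, 4.21, 8.01 and 8.10 on the control arrays. Acvrl1, the ALK1 receptor for bone morphogenetic proteins, was 4.94, 3.61, 4.38 and 3.56 on the resistant arrays, 3.49, 3.55, 2.85 and 4.04 on the sensitive arrays and 4.10, 4.45, 3.60, 4.41 and 5.58 on the control arrays. Adgrf5 was high on control arrays 4 and 5 and at its lowest on sensitive array 3, whereas for Acvrl1 control array 4 lay among the other arrays and the groups overlapped.

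Lyve1, a hyaluronan receptor of lymphatic endothelium that subsets of tissue macrophages also carry, was 6.62, 4.84, 6.78 and 5.92 on the resistant arrays, 3.89, 4.33, 3.55 and 5.58 on the sensitive arrays and 7.05, 4.86, 4.48, 7.71 and 6.02 on the control arrays. It was low on sensitive arrays 1, 2 and 3 and higher on sensitive array 4, as were the macrophage genes. The summed linear level of the 14 macrophage genes was 6492 to 15186 on the resistant arrays, 538 to 13707 on the sensitive arrays and 6457 to 14386 on the control arrays, with all 14 above the floor on every resistant and control array and 11, 11, 13 and 14 above it on sensitive arrays 1 to 4. The medians of 6 genes of lymphatic endothelium were 3.31, 3.22, 3.34 and 4.49 on sensitive arrays 1 to 4. They were 2.92 to 3.66 on the resistant arrays, 2.88 to 3.19 on control arrays 1, 2 and 3 and 4.85 and 5.18 on control arrays 4 and 5. Of these 6 genes, 4 or 5 were above the floor on each array. The part of macrophages or of lymphatic endothelium in the Lyve1 values was not tested.

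The remaining receptors followed the control arrays to different degrees. Robo4, a guidance receptor of the endothelium, had 7.47 and 8.17 on control arrays 4 and 5, against 2.46 to 4.29 on the other 11. Calcrl, the receptor subunit for adrenomedullin, had 7.37 and 6.89 on control arrays 4 and 5, against 2.01 to 4.70 on the other 11, and its partner Ramp2 had 6.55 and 6.83 on control arrays 4 and 5, against 2.78 to 4.81 on the other 11. Gpihbp1, which carries lipoprotein lipase to the capillary lumen, had 6.03 and 5.77 on control arrays 4 and 5, against 2.78 to 4.92 on the other 11. The margins of S1pr1, a receptor for sphingosine 1-phosphate, and Eng, the TGF-β co-receptor endoglin, were the smallest of the 24.

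Among the 6 surface glycoproteins and small membrane proteins, 5 had this pattern. Emcn, the gene of the sialoglycoprotein endomucin, was 2.83, 2.82, 2.85 and 2.80 on the resistant arrays, 2.01, 2.01, 2.20 and 2.94 on the sensitive arrays and 2.35, 2.66, 2.38, 5.96 and 5.48 on the control arrays. Ecscr, which acts in endothelial migration, was 3.33, 3.24, 3.66 and 2.65 on the resistant arrays, 3.10, 2.82, 2.01 and 2.80 on the sensitive arrays and 2.62, 3.49, 3.20, 5.95 and 5.94 on the control arrays. Clec14a, a C-type lectin of the endothelium, was 2.88, 2.63, 2.63 and 2.53 on the resistant arrays, 2.43, 2.78, 2.01 and 2.32 on the sensitive arrays and 2.26, 2.01, 2.98, 4.52 and 5.22 on the control arrays. These 3 genes lay near the floor on many of the arrays other than control arrays 4 and 5.

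Cd34, a sialomucin of endothelium, blood progenitors and some stromal cells, was 5.19, 6.81, 6.63 and 4.09 on the resistant arrays, 7.59, 6.47, 3.18 and 3.27 on the sensitive arrays and 5.89, 5.95, 6.40, 8.13 and 8.18 on the control arrays. Its values were high on sensitive arrays 1 and 2 and on resistant arrays 2 and 3 as well, and low on sensitive arrays 3 and 4. Cyyr1, a small membrane protein, had 8.84 and 8.97 on control arrays 4 and 5, against 2.09 to 4.55 on the other 11. Myct1, a membrane protein of the endothelium, was 3.62, 4.57, 3.93 and 4.83 on the resistant arrays, 6.52, 5.42, 3.41 and 3.79 on the sensitive arrays and 3.63, 3.44, 4.32, 4.67 and 4.62 on the control arrays, with its highest values on sensitive arrays 1 and 2.

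Only 1 of the 3 caveola and diaphragm genes set control arrays 4 and 5 apart. Plvap, the protein that forms the diaphragms of caveolae and capillary openings, was 6.39, 5.17, 6.12 and 6.0 on the resistant arrays, 4.87, 4.0, 2.98 and 4.90 on the sensitive arrays and 4.06, 3.64, 4.24, 8.86 and 9.37 on the control arrays. The lowest resistant array exceeded the highest sensitive array, and also control arrays 1 to 3, while control arrays 4 and 5 were higher again. Cav1, the main coat protein of caveolae in endothelium and in fibroblasts and mesothelium too, was 8.96, 10.10, 8.87 and 8.88 on the resistant arrays, 9.85, 10.28, 5.26 and 7.96 on the sensitive arrays and 7.92, 8.30, 8.92, 9.72 and 9.69 on the control arrays. Its highest values were on sensitive arrays 1 and 2 and resistant array 2, on which the 10 mesothelial genes had medians of 8.31, 7.88 and 6.97. Control arrays 4 and 5 were next in Cav1, with mesothelial medians of 3.19 and 3.97. Resistant array 3 had a mesothelial median of 6.34 with Cav1 at 8.87. The summed linear level of these 10 genes was 109 to 1469 on the resistant arrays, 84.4 to 3439 on the sensitive arrays and 109 to 651 on the control arrays, with 9 or all 10 of them above the floor on each array. On sensitive arrays 1 and 2 and resistant array 2, 14 pericyte and fibroblast genes had medians of 5.98, 6.86 and 7.56. On the other arrays these medians were 3.75 to 6.28. Their summed linear level was 1345 to 14071 (resistant), 296 to 11082 (sensitive) and 2892 to 5914 (control). The part of mesothelial cells, pericytes or fibroblasts in the Cav1 values was not tested.

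Cav2, the partner of caveolin-1, was 6.45, 5.85, 5.78 and 6.04 on the resistant arrays, 4.31, 2.79, 2.73 and 6.01 on the sensitive arrays and 5.20, 6.20, 5.55, 5.67 and 5.35 on the control arrays. It was low on sensitive arrays 1, 2 and 3, and sensitive array 4 fell among the resistant and control arrays, which overlapped.

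Of the 6 secreted proteins and ligands, 4 were above all other arrays on control arrays 4 and 5. Esm1, a proteoglycan of vessel tips that VEGF-A induces, was 3.51, 3.27, 3.35 and 2.01 on the resistant arrays, 2.39, 2.01, 4.33 and 2.45 on the sensitive arrays and 4.34, 2.01, 2.36, 8.94 and 8.89 on the control arrays. Vwf, the gene of von Willebrand factor, was 4.91, 2.69, 3.83 and 2.92 on the resistant arrays, 2.20, 2.41, 2.01 and 3.23 on the sensitive arrays and 2.68, 2.34, 2.16, 7.07 and 7.50 on the control arrays. On both genes control arrays 4 and 5 stood far above the rest, and the other groups overlapped. The extracellular matrix glycoproteins Mmrn1 and Mmrn2 had the same order, with 5.87 and 6.41 on control arrays 4 and 5, against 2.09 to 4.69 on the other 11, for Mmrn1 and 6.93 and 7.40 on control arrays 4 and 5, against 3.22 to 4.83 on the other 11, for Mmrn2.

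Egfl7, a matrix protein of growing vessels, was 4.15, 3.87, 4.09 and 3.17 on the resistant arrays, 6.66, 3.74, 2.93 and 2.91 on the sensitive arrays and 3.20, 3.16, 4.12, 6.49 and 6.55 on the control arrays, so that sensitive array 1 joined control arrays 4 and 5 at the top. Apln, the peptide ligand of the apelin receptor, was 4.01, 4.86, 3.98 and 4.40 on the resistant arrays, 6.26, 5.53, 3.47 and 3.57 on the sensitive arrays and 3.70, 3.73, 4.93, 4.52 and 4.57 on the control arrays, highest on sensitive arrays 1 and 2. Those arrays had the smallest SD of deposited values, 1.74. In the values as deposited, the sensitive mean was 4.39 in place of 4.71 for Apln. For Myct1 it was 4.46 in place of 4.78. The part of the narrower range was not tested.

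Inside the cell, 3 of 4 genes had the common pattern. Nos3, the endothelial nitric oxide synthase, had 5.69 and 5.22 on control arrays 4 and 5, against 2.49 to 4.38 on the other 11, and Rasip1, a Ras-binding protein needed for vessel lumens, had 5.28 and 5.53 on control arrays 4 and 5, against 2.01 to 3.53 on the other 11. Ushbp1 was 2.61, 2.62, 3.14 and 2.62 on the resistant arrays, 2.14, 2.22, 2.21 and 2.36 on the sensitive arrays and 2.01, 2.45, 2.40, 4.02 and 3.66 on the control arrays. Every resistant array lay above every sensitive array for Ushbp1, by small amounts close to the floor. Arhgef15 was 2.73, 2.33, 2.69 and 2.62 on the resistant arrays, 3.25, 2.78, 2.34 and 2.63 on the sensitive arrays and 2.48, 2.63, 2.61, 3.06 and 2.71 on the control arrays and varied little between arrays.

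**Figure D2:**
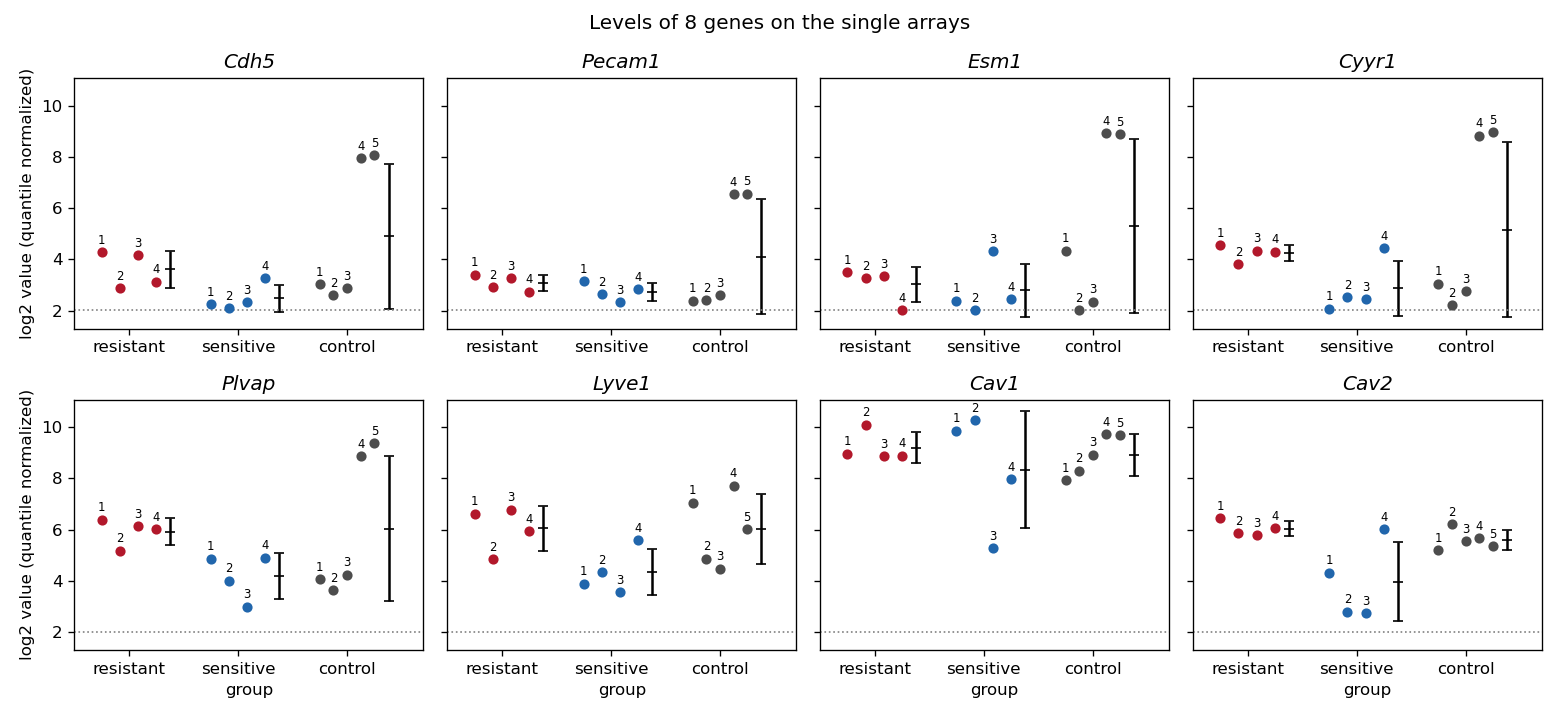
Log2 value of 8 of the genes on the resistant, sensitive and control arrays; each point is 1 array with its replicate number, bars are the group mean ± SD and the dotted line is the floor of 2.01. For Cdh5, Pecam1, Esm1, Cyyr1 and Plvap the control SD comes from arrays 4 and 5, whereas Cav2 is lowest on sensitive arrays 2 and 3.

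For Myct1, Arhgef15 and Egfl7, 3 of the 9 exceptions, the order of the arrays depended on the probe set read. Of the 33 genes, 15 had more than 1 probe set, and 59 were present in all. For Myct1, probe set 1447584_s_at had 6.80 and 6.73 on control arrays 4 and 5 and at most 2.49 elsewhere, unlike 1438048_at, whose values are given above. For Arhgef15, probe set 1455522_at had 4.98 and 4.36 on control arrays 4 and 5 and at most 2.59 on the others. For Egfl7, 1451428_x_at had 6.16 and 6.28 on control arrays 4 and 5 and at most 4.32 elsewhere, and 1435823_x_at had 4.88 and 4.61 and at most 3.82. For Eng, whose margin was small on the probe set used, 1432176_a_at had 8.15 and 8.0 on these arrays and at most 5.20 elsewhere. Other probe sets lacked the pattern. For Cyyr1, 1452019_at had 2.06 and 2.08 on control arrays 4 and 5 and 2.93 on sensitive array 1. For Cdh5, 1422047_at had 2.61 and 2.29 there and 2.36 on sensitive array 1, all close to the floor. For Jam2, another exception, 1436568_at had 4.96 and 5.70 on control arrays 4 and 5 and 5.10 on resistant array 2. Its resistant minus sensitive difference was 1.03 in place of -0.01. For Acvrl1, also an exception, 1451604_a_at had 2.01, 2.60, 2.01 and 4.40 on the sensitive arrays. On that probe set resistant minus sensitive was 1.61 in place of 0.64, and sensitive minus control was -2.0 in place of -0.95.

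Lyve1 was lower on sensitive arrays 1, 2 and 3 on both of its probe sets: on 1429379_at these arrays had 2.01, 2.07 and 2.12, against 6.53 on sensitive array 4. The probe sets of Cav2 did not agree. On 1425955_at Cav2 had 5.42 and 4.96 on sensitive arrays 1 and 2, where the probe set used had 4.31 and 2.79, and the resistant minus sensitive difference was -0.40 in place of 2.07. Statements on Cav2 therefore hold for 1417327_at alone. The probe set 1425955_at was also high on control array 3, at 5.18, and sensitive arrays 1 and 2 and control array 3 were the arrays with the smallest SD of deposited values. The part of that narrower range was not tested.

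**Figure D3:**
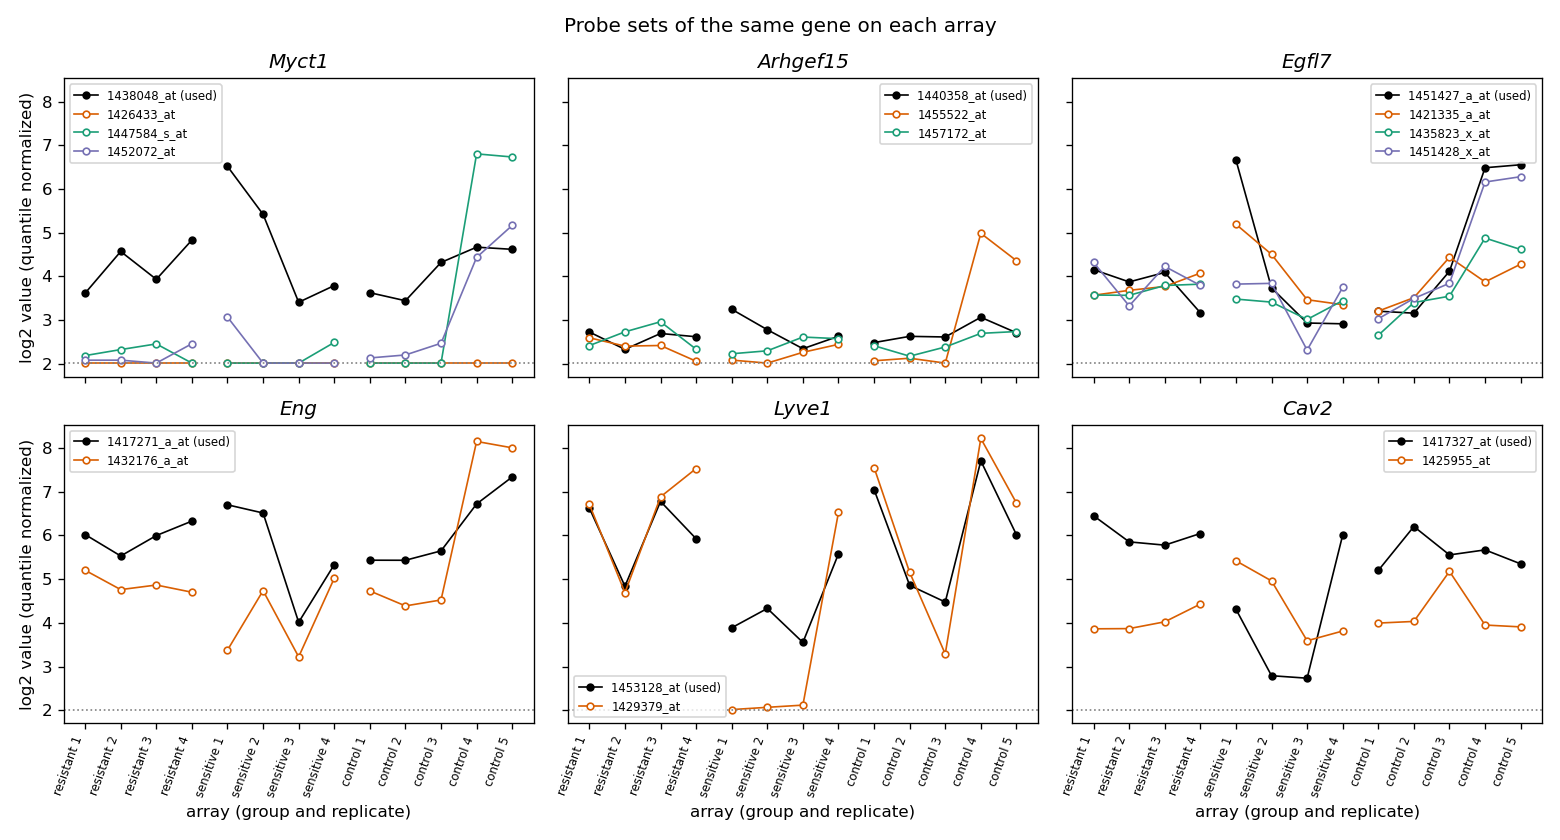
Log2 value of every probe set of 6 genes on the 13 arrays; the filled points are the probe set used, lines join arrays of a group only to guide the eye, and the dotted line is the floor of 2.01. For Myct1, Arhgef15, Egfl7 and Eng an unused probe set is highest on control arrays 4 and 5, and for Cav2 the probe sets differ on sensitive arrays 1 and 2.

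Promoter sequences of RefSeq (mouse build GRCm38.p6) were found for 18 members, as the 250 bases before the transcription start. The 4 shown are of members that were described in full for their differences between groups and whose promoters hold a searched word, so promoters without one were passed over. They are printed 5′ to 3′ on the gene's strand, and capitals mark the words AGGAAG and CGGAAG on either strand, the core that ETS factors bind.
Adgrf5 (chr17:43360181-43360430, plus strand): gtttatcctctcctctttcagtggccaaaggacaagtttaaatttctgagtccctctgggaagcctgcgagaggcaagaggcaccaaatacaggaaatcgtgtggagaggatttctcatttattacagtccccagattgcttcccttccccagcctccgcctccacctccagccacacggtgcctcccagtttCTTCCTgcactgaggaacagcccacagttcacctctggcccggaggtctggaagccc
Emcn (chr3:137340828-137341077, plus strand): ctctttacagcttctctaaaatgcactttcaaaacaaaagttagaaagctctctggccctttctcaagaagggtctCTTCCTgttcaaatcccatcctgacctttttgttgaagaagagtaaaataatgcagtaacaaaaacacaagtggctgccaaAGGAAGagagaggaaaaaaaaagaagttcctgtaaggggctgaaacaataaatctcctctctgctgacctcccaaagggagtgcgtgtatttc
Cd34 (chr1:194938571-194938820, plus strand): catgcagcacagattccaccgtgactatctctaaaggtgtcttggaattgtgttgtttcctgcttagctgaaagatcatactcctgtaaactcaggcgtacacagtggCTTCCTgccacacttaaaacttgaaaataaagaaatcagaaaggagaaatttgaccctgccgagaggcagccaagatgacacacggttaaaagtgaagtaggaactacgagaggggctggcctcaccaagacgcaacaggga
Ushbp1 (chr8:71395802-71396051, minus strand): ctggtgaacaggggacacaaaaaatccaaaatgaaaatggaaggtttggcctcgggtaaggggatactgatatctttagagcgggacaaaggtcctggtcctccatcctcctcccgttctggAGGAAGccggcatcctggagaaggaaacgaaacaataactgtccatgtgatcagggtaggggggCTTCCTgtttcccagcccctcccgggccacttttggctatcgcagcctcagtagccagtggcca
An ETS word was present in 11 of the 18 member promoters (61.1%) and in 39.0% of 27025 mouse promoters of the same length. The GATA word AGATAA was present in 1 member promoter (5.6%), against 10.3% of all, and the KLF word CCACCC in 3 (16.7%), against 27.7%, on either strand. The words can share letters, since AGGAAG followed by ATAA also holds AGATAA. Of the 13 members with a promoter that were highest on control arrays 4 and 5, 9 held an ETS word, and Esm1, Cldn5, Clec14a and Mmrn1 did not, although Esm1 had the widest margin on these arrays. Of the 5 other members, 2 held it. A match is a description of the letters and not a bound site.

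Resistant tumors were set against sensitive tumors to ask what differs once B20 no longer holds growth back. Of the 33 genes, 25 had a higher mean in the resistant group and 8 in the sensitive group, with a median log2 difference of 0.55, beside -0.07 over all 15370 genes tested, of which 42.1% were positive. With limma and Benjamini-Hochberg adjustment over all genes, 0 of 33 passed an adjusted p of 0.05, as did 0 genes in all (0%). At an unadjusted p under 0.05, 2 members (6.06%) were higher in the resistant group, against 4.54% of all genes, and 0 were lower, against 2.53%. The groups did not overlap for 2 members that were higher, Plvap and Ushbp1, against 0.976% of all genes, and for 0 that were lower, against 0.898%.

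The member with the smallest p was Cav2, which averaged 6.03 ± 0.30 in the resistant group and 3.96 ± 1.55 in the sensitive group (SD, n = 4 each), a difference of 2.07 (SE 0.58, limma adjusted p = 0.449). Lyve1 averaged 6.04 ± 0.88 in the resistant group and 4.34 ± 0.89 in the sensitive group, a difference of 1.70 (SE 0.70, limma adjusted p = 0.658). These were the members past the unadjusted threshold, and 1 member passed it without resistant array 1 (3.09% of all genes), resistant array 3 (3.37%), sensitive array 1 (3.62%) or sensitive array 3 (5.3%). Plvap differed by 1.73 (SE 1.14, limma adjusted p = 0.783), Acvrl1 by 0.64 (SE 0.44, limma adjusted p = 0.789), Ushbp1 by 0.52 (SE 0.36, limma adjusted p = 0.792) and Vwf by 1.13 (SE 1.10, limma adjusted p = 0.815). For the junction genes, Cdh5 differed by 1.12 (SE 1.13, limma adjusted p = 0.816) and Pecam1 by 0.34 (SE 0.88, limma adjusted p = 0.920), each within its error. The other 25 ranged from -0.55 for Myct1 to 1.38 for Cyyr1.

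Without sensitive array 4, Cav2 was called higher in the resistant group, by 2.75 (limma adjusted p = 0.00237). In that fit 2.81% of all genes were called. The array left out had the large 3' excess and, alone among the sensitive arrays, a high macrophage median, at 9.32. It also had the highest sensitive value of Cav2, 6.01, against 4.31, 2.79 and 2.73. Leaving it out lowers the sensitive mean by construction, so the call gives no support for a difference between the groups. The call was made on probe set 1417327_at, and 1425955_at was not tested. The fit pools the spread of all 3 groups, so the wide control values enter the errors of this comparison too. With control arrays 4 and 5 left out, Cdh5 kept its difference of 1.12 with an SE of 0.36, and 9 members (27.3%) were higher at an unadjusted p under 0.05, against 3.86% of all genes: Cdh5, Robo4, Lyve1, Emcn, Cyyr1, Cav2, Plvap, Vwf and Ushbp1. A fit of only the resistant and sensitive arrays gave the same 9 genes, against 2.9% of all genes. In both fits 0 members passed after adjustment. Control arrays 4 and 5 were left out because these genes were high on them, which shrinks the errors by construction. The SE was smaller for 28 of the 33 members, so the count without these arrays gives no support for a difference between the groups. The fit of only the resistant and sensitive arrays holds no control array by its design, and not by a choice on these values. In it the SE of Cdh5 was 0.39. It was an alternative chosen with earlier results of these data known, and its count was not tested further.

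Sensitive tumors were set against control tumors to ask what differs in tumors that respond to B20. The mean of 30 of the 33 genes was lower in the sensitive group, with a median log2 difference of -1.28, beside 0.09 over all genes. With limma, 0 of 33 passed an adjusted p of 0.05, as did 0 genes in all (0%). At an unadjusted p under 0.05, 7 members (21.2%) were lower in the sensitive group, against 6.58% of all genes, and 0 were higher, against 5.31%. The groups overlapped for all 33 members, where 1.43% of all genes did not overlap and were higher in the sensitive group and 1.59% did not overlap and were lower.

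Cav2 averaged 3.96 ± 1.55 in the sensitive group (SD, n = 4) and 5.60 ± 0.39 in the control group (SD, n = 5), a difference of -1.63 (SE 0.55, limma adjusted p = 0.303). Lyve1 differed by -1.68 (SE 0.67, limma adjusted p = 0.358), Ecscr by -1.56 (SE 0.63, limma adjusted p = 0.367) and Adgrf5 by -2.24 (SE 0.98, limma adjusted p = 0.396). Cdh5 averaged 2.49 ± 0.53 in the sensitive group and 4.91 ± 2.84 in the control group, and differed by -2.42 (SE 1.07, limma adjusted p = 0.402). The control SD of Cdh5 reflects arrays 4 and 5. Acvrl1 differed by -0.95 (SE 0.42, limma adjusted p = 0.402) and Pecam1 by -1.37 (SE 0.83, limma adjusted p = 0.496), and Emcn completed the 7 members past the unadjusted threshold, at -1.47. The remaining members ranged from -2.51 for Esm1 to 0.65 for Myct1.

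That count of 7 rested on single arrays. It was 1 without sensitive array 3, against 8.15% of all genes, and 4 without sensitive array 1, against 5.4%. It was 1 without control array 4, against 5.25% of all genes, and 2 without control array 5, against 5.84%. It was 10 without control array 1, 16 without control array 2 and 14 without control array 3, against 5.72%, 5.55% and 6.71% of all genes. Without control arrays 4 and 5 together, 19 members were higher and 14 lower in the sensitive group (57.6% higher, against 57.2% of all genes) and the median was 0.12, beside 0.08 over all genes. Without sensitive array 4, Cav2 on probe set 1417327_at was called lower in the sensitive group, by -2.32 (limma adjusted p = 0.00494), in a fit that called 4.54% of all genes. That array had the highest sensitive value of Cav2, 6.01, so leaving it out lowers the sensitive mean by construction. The call therefore gives no support for a difference between the groups.

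Resistant tumors were also set against control tumors, with the same control arrays as in the comparison above. The mean of 27 of the 33 genes was lower in the resistant group, with a median log2 difference of -0.64, beside 0.03 over all genes. With limma, 0 of 33 passed an adjusted p of 0.05, as did 0 genes in all (0%). At an unadjusted p under 0.05, 0 members were higher, against 0.982% of all genes, and 0 were lower, against 1.53%. The groups overlapped for all 33 members, where 1.31% of all genes did not overlap and were higher in the resistant group and 1.39% did not overlap and were lower.

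Esm1 averaged 3.04 ± 0.69 in the resistant group (SD, n = 4) and 5.31 ± 3.41 in the control group (SD, n = 5), a difference of -2.27 (SE 1.30). Ecscr differed by -1.02 (SE 0.63), Emcn by -0.94 (SE 0.67), Clec14a by -0.73 (SE 0.53), Cd34 by -1.23 (SE 0.93) and Adgrf5 by -1.21 (SE 0.98). Cdh5 differed by -1.30 (SE 1.07) and Pecam1 by -1.03 (SE 0.83). The limma adjusted p of each of these 8 genes was 1.00 after rounding. The highest difference of any member was 0.44, for Cav2.

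The sign of this comparison depended on control arrays 4 and 5. Without them, 32 of the 33 genes were higher in the resistant group (97.0%), against 51.1% of all 15261 genes tested in that fit, and the median was 0.46, beside 0.01 over all genes. The exception was Cd34, at -0.40. At an unadjusted p under 0.05, 7 members (21.2%) were higher, against 0.564% of all genes, and 0 passed after adjustment. They were Plvap, at 1.94 (SE 0.50), Cyyr1, at 1.58 (SE 0.49), Vwf, Robo4, Mmrn2, Pecam1 and Ushbp1. The arrays were left out because these genes were high on them, which lowers the control means by construction, so the count gives no support for a difference between the groups.

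**Figure D4:**
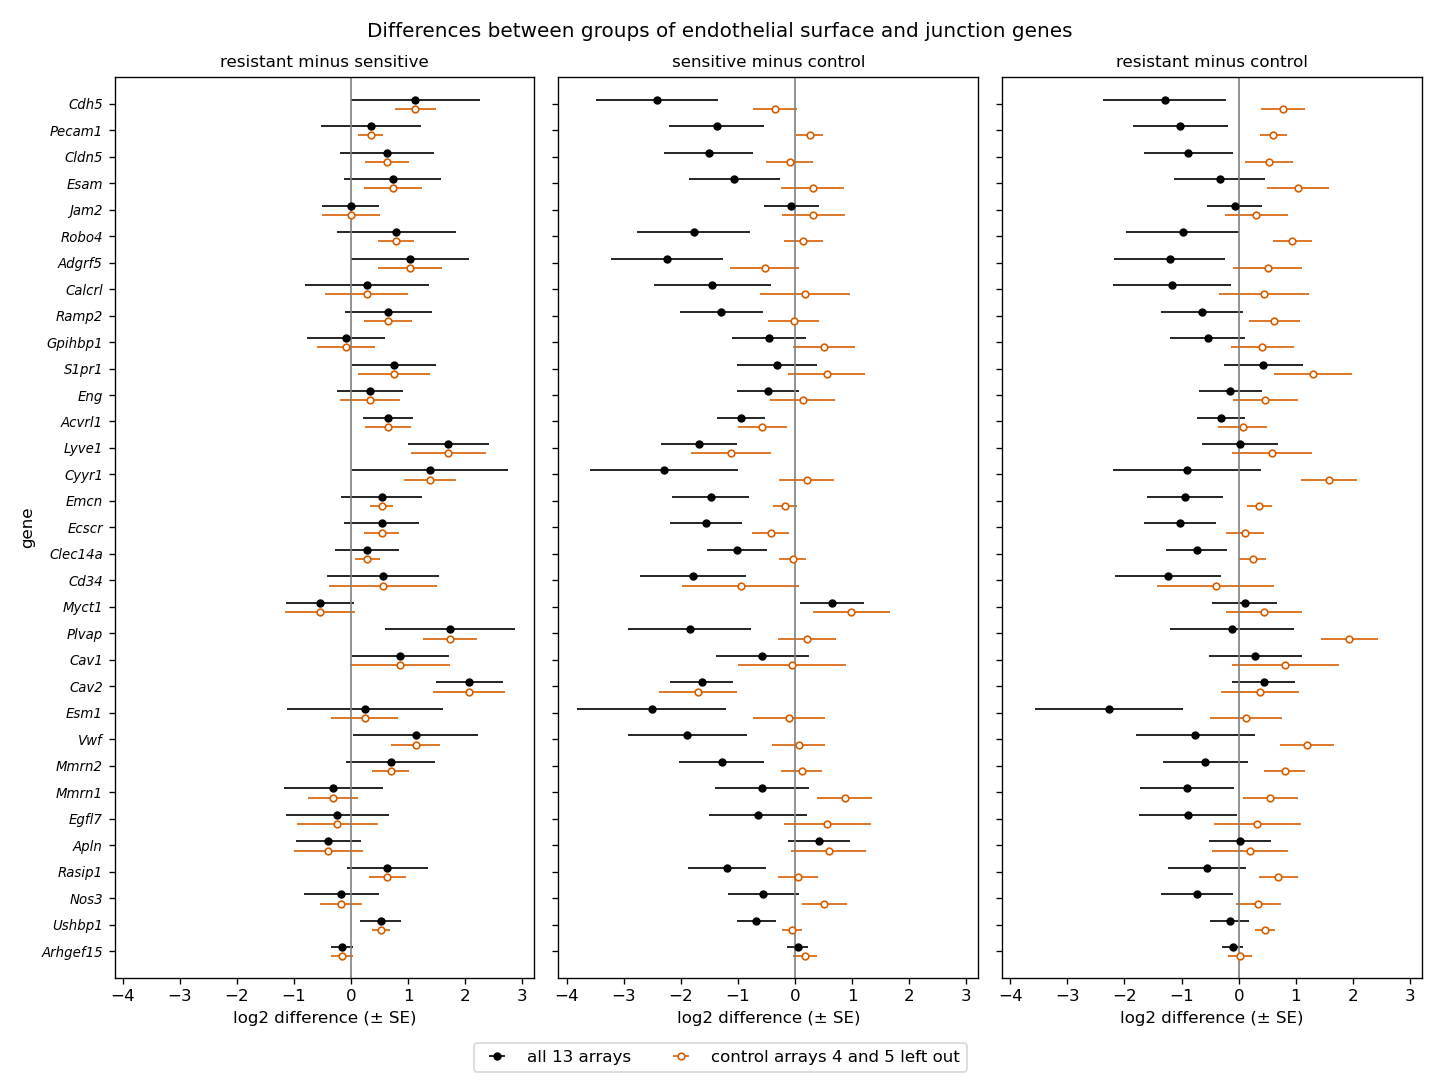
Log2 difference ± SE of each of the 33 genes in each comparison, from the fit of all 13 arrays (filled) and from the fit without control arrays 4 and 5 (open). Resistant minus sensitive keeps its values and has smaller errors in most genes, sensitive minus control is nearer 0 for 25 of the 33 genes, and resistant minus control is positive for 32.

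Of 50 other endothelial genes, among them VEGF receptors, endothelial transcription factors and selectins, 48 were tested, and 0 were called in any of the 3 comparisons. In the resistant group 33 of 48 were higher than in the sensitive group (median 0.19), led by Icam2, an adhesion molecule of endothelium and leukocytes, at 2.11 (SE 0.64, limma adjusted p = 0.510), Selp, at 2.03, and Aqp1, at 1.80. In the sensitive group 38 of 48 were lower than in the control group (median -0.41), with Icam2 at -1.82, Nrp1 at -2.38 and Aqp1 at -2.21. In the resistant group 34 of 48 were lower than in the control group (median -0.33), with Flt1 at -1.33, Angpt2 at -1.39 and Fli1 at -1.38. Their median level was 3.59 to 4.14 on the resistant arrays, 2.84 to 4.07 on the sensitive arrays, 3.34 to 3.47 on control arrays 1, 2 and 3 and 5.85 and 5.60 on control arrays 4 and 5. Whether this list differs from the 33 genes was not tested.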

How the data were processed

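Total RNA of CD31-sorted tumor cells was hybridized to 13 single-color Affymetrix Mouse Genome 430 2.0 arrays. The table deposited by the authors held 45101 probe sets, whose values were read as log2 intensities. The labels name MAS5, with no version, whereas the study's methods describe Illumina bead chips, BRB-ArrayTools and an intensity minimum. Neither the normalization nor the log base is stated for these values, and base 2 was assumed.

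Arrays were quantile normalized and floored at the 30th percentile (2.01), which understates changes of dim genes. The 34958 probe sets with a single symbol on the platform gave 18193 genes (932 with several symbols and 9211 unnamed ones were set aside), each read from its probe set with the highest mean. Genes above the floor on at least 4 arrays were tested (15370; 2823 were left out). Groups, taken from the labels, were compared in a single limma fit of the 3 groups (limma 3.58.1, R 4.3.3; lmFit, then eBayes with its trend option; 10 residual degrees of freedom), two-sided, with Benjamini-Hochberg adjustment over all genes tested. The script was tested on simulated data. No arrays were identical. The number of arrays limits the precision.

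The members, the lists of other genes and the alternatives were chosen with earlier results of these data known. All members are named. The 6 with the smallest unadjusted p in each comparison, with Cdh5 and Pecam1, are given with their errors; of the other endothelial genes the 3 with the smallest p are named. The alternatives covered scaling, floor, filter, probe set rule, variance model, a Student test, the arrays in the fit, the replicate block and leaving out arrays. The Student test lacked the random variance model that the study's methods name. Promoters were matched by symbol to the RefSeq table, and the first listed per gene was used.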

Additional observations from a re-analysis of the deposited data

Results flagged for a closer look

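In 4 of 99 sets of values (33 genes in 3 groups) 1 array lay far from the others of its group by Dixon's criterion, which chance meets in about 1 of 20. Cav1 was 10.10 on resistant array 2, against 8.87 to 8.96 on the other resistant arrays. Esm1 was at the floor, 2.01, on resistant array 4, against 3.27 to 3.51 on the others. Rasip1 was 3.22 on sensitive array 4, against 2.01 to 2.10 on the other sensitive arrays. Ushbp1 was 3.14 on resistant array 3, against 2.61 to 2.62 on the others. Control arrays 4 and 5 were not singled out by this criterion, which looks for 1 array apart from the rest.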

How the results depend on the processing

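The number of members called was 0 in each comparison under every scaling, floor, filter, probe set rule, variance model and test tried, and under leave-one-out it was 0 to 1 between resistant and sensitive arrays and 0 to 1 between sensitive and control arrays, the 1 being Cav2 without sensitive replicate 4. Other endothelial genes called between sensitive and control arrays were 0 to 1, again without sensitive replicate 4. Leaving out that replicate, the highest sensitive array for Cav2, lowers the sensitive mean of Cav2 by construction. The number of members with control arrays 4 and 5 above the other 11, counted after seeing the data, was 24 in the main setting, 25 as deposited, 25 at a common array median, 24 without the floor and 27 with the mean of all probe sets. The share of all genes was not computed under any of these settings. Shifting arrays to a common median moved the median of all genes to 0.04 between resistant and sensitive arrays and to -0.05 between sensitive and control arrays, by over 0.1 in each.

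Without control arrays 4 and 5 the median member difference between sensitive and control arrays was 0.12, and 0.18 without sensitive array 3 as well; Pecam1 was then 0.26 and 0.40. Under either setting resistant minus control was 0.13 for Esm1, 0.11 for Ecscr, 0.36 for Emcn, 0.25 for Clec14a, 0.50 for Adgrf5, 0.77 for Cdh5 and 0.61 for Pecam1, all reversed by the loss of the high control values. Without sensitive arrays 1, 2 and 3, Cav2 was 0.41 between sensitive and control arrays, with the lone sensitive array assumed to vary like the other groups. With the replicate number of the labels as a block, 0 members were called and the medians were 0.55 (resistant minus sensitive), -0.70 (sensitive minus control) and -0.11 (resistant minus control). Replicate number 5 occurs only in the control group, so this fit takes control array 5 out of the comparisons. Same-numbered arrays deviated from their group means with correlations of -0.43 to 0.53, so the numbers were not read as pairs. Of the single named genes, 556 values kept their direction and their side of the threshold, 17 reversed and 2 passed the threshold.

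Signal limits some values: 25 of the 33 members were above the floor on all 13 arrays and the others on at least 10, and values at the floor have no order. The cause of the separation of control arrays 4 and 5 was not tested.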
